A study of Mus musculus with 3 samples.

Results

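Mast cells, basophils and eosinophils are the granulocytes of type 2 immunity, and 10 genes that mark them were followed here in marrow of TBLR1-RARα (TR) leukemia mice. The genes were Cpa3, Mcpt8, Prss34, Fcer1a, Ms4a2, Hdc, Prg2, Epx, Il5ra and Alox15. They were chosen by name for their known place in these cells, with earlier results of these data known. All 10 were among the 16742 genes listed in at least 1 of the 3 RNA-seq libraries. There was 1 library per condition, each pooled from 3 mice of the C57BL/6 background with a labelled age of 6 to 8 weeks. The control library came from wild-type bone marrow cells negative for lineage markers (lin-), the cells that remain after a column removes those with mature lineage antigens. The TR1 and TR9 libraries came from GFP+ bone marrow cells of leukemia mice, sorted at the third generation of transplantation. TR1 and TR9 each descend from 1 primary mouse that received lin- cells transduced with a retrovirus encoding TR and GFP, and each line thus stands for 1 founder. Control and TR cells thus differed in sorting, transplantation and retroviral transduction with GFP as well as in TR, and these cannot be told apart.

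Eosinophils carry basic proteins and a peroxidase in their granules and depend on interleukin-5, whereas basophils and mast cells hold histamine and proteases and are armed through the high-affinity receptor for IgE. All these cells arise in the marrow from myeloid progenitors that express GATA factors, and they take up a small share of normal marrow. Mcpt8 and Prss34 are serine proteases known from mouse basophils, and Cpa3, carboxypeptidase A3, is made by mast cells, basophils and their progenitors.

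Levels are given in reads that RSEM assigned to a gene, here called counts or expected counts, and in FPKM, which divides by transcript length and library total so that genes can be compared. The expected counts summed to between 5129662 and 5571409 per library, so 3 counts, used here as the floor, were 0.538 to 0.585 CPM (counts scaled to an equal library total). Genes that a library does not list were set to 0 in it. A gene was called lower or higher when its log2 ratio of CPM was at least 1 in size and an exact Poisson test of the rounded counts passed a false discovery rate of 0.001. That test compares the reads of 2 libraries and not the conditions, and no difference below has a replicate check. Intervals are 95% exact conditional intervals and cover counting error only. A ratio against 0 counts was computed against the floor and is a lower bound. Rara, a partner in the TR fusion, had 58.9 expected counts in control against 1168 in TR1 and 359 in TR9, and Tbl1xr1, the gene of the other partner, had 854, 1186 and 981.

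The 10 genes together held 11052 counts in control against 588 in TR1 and 524 in TR9. Relative to library size, control held 19.1 times the sum of TR1 and 19.7 times that of TR9, and between TR9 and TR1 its log2 ratio was −0.05 (95% interval −0.22 to 0.13). In each line 9 of the 10 genes were called lower than control, and these were the same 9, with Il5ra the exception. None of the 10 was called higher in either line. An edgeR test that assumed a biological coefficient of variation of 0.4 called 5 of the 10 lower in each line and 4 in both. Over all genes, that edgeR test called 347 lower in TR1 and 287 in TR9, and thus at most 287 in both. By the Poisson test and fold, 13.2% of all genes tested were called lower in TR1 (18.6% by fold alone). The share was 10.9% in TR9 (15.5% by fold alone) and 8.48% in both (11.8% by fold alone). Higher calls made up 8.14% in TR1 (11.3% by fold alone), 9.48% in TR9 (13.6% by fold alone) and 5.7% in both (7.89% by fold alone). Scaling moved that balance in TR1, where 2144 genes were lower and 1325 higher, against 1629 and 1695 with median of ratios factors and 2950 and 1079 with FPKM scaled to an equal sum, and the count of 9 was the same under each. In TR9 it turned from 1776 lower and 1546 higher to 1540 and 1711 with median of ratios factors, again with 9 of the 10 genes lower. The median log2 ratio of the 10 genes was −3.92 in TR1 and −5.04 in TR9, with genes at 0 set to their bound, beside −0.29 and −0.12 over all genes with a ratio. Whether a line held fewer cells of these types or less RNA per cell cannot be told apart in bulk libraries.

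**Figure D1:**
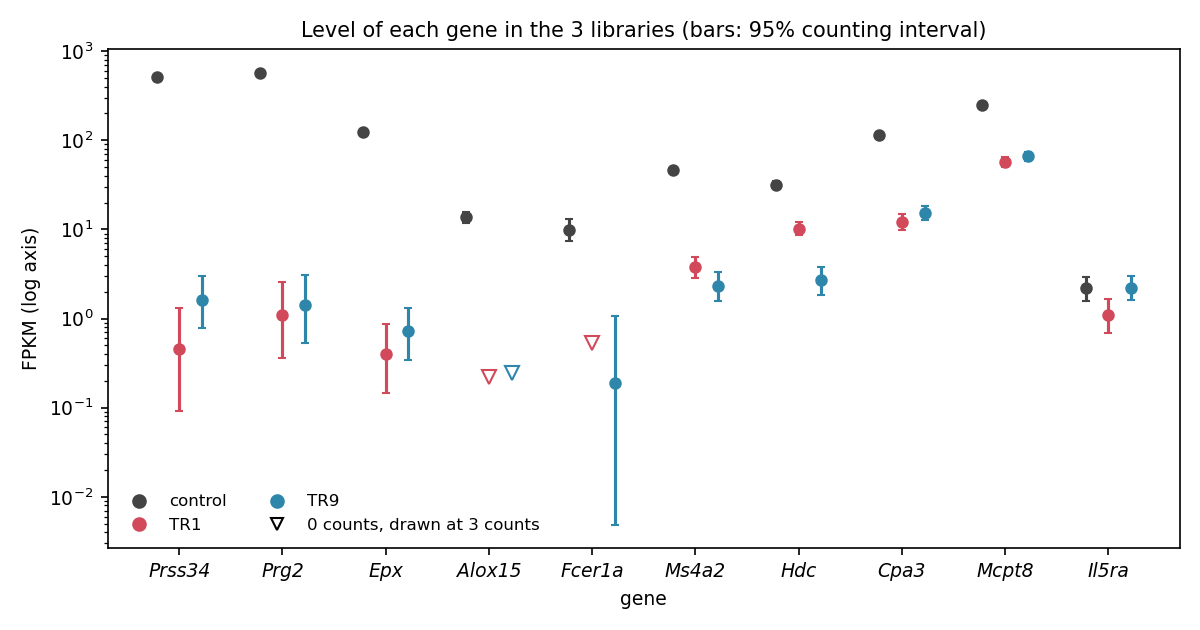
FPKM of each gene on a log axis in control, TR1 and TR9, 1 library each, with bars for the 95% counting interval and open triangles for a library at 0, drawn at 3 counts. Prss34, Prg2 and Epx went from 123 to 563 FPKM in control to below 2 in both lines. Mcpt8 went from 247 FPKM to 57.3 in TR1 and 66.3 in TR9.

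The sizes of the falls were far apart, and after the values were seen the genes were sorted by what was left in the lines. Prg2, Epx, Prss34, Fcer1a and Alox15 had 10 counts or fewer in both TR1 and TR9. The other 5 genes, Mcpt8, Cpa3, Ms4a2, Hdc and Il5ra, had over 20 counts in both. Control ranked Prg2, Prss34 and Mcpt8 highest of the 10 by FPKM, and both lines ranked Mcpt8 and Cpa3 highest. In TR1 the interval of Cpa3 (9.96 to 14.9 FPKM) overlapped that of Hdc (8.58 to 12.1), so the second rank was not resolved there.

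The eosinophil granule genes were almost without reads in the lines. Prg2, which encodes eosinophil major basic protein, had 2520 expected counts in control against 5 in TR1 and 6 in TR9, or 563, 1.10 and 1.43 FPKM. Control was thus far above both lines, whose intervals overlapped (0.36 to 2.57 FPKM in TR1 and 0.52 to 3.11 in TR9). The log2 ratio was −9.00 in TR1 (−10.62 to −7.77) and −8.62 in TR9 (−10.06 to −7.49). By FPKM, Prg2 stood at rank 106 of the 15302 genes listed in control and at ranks 10741 and 10779 in the lines. Epx, eosinophil peroxidase, had 1817, 6 and 10 counts. Its log2 ratio was −8.26 in TR1 (−9.71 to −7.14) and −7.41 in TR9 (−8.47 to −6.53). Within the control library the level of Epx was 0.218 that of Prg2 per length, and the few reads left in the lines did not show whether this proportion moved (log2 odds ratio in TR9 1.21, interval −0.40 to 2.95).

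Alox15 and Il5ra, both known from eosinophils, parted. Alox15, the 12/15-lipoxygenase that oxidizes arachidonic acid, had 181 counts in control, 13.6 FPKM, and was not listed in TR1 or TR9. It was lower by at least 61.2-fold in TR1 and by at least 56.4-fold in TR9. Il5ra, the receptor subunit that binds interleukin-5, had 43.2 expected counts in control against 22 in TR1 and 40.6 in TR9, or 2.20, 1.10 and 2.21 FPKM. Control and TR9 overlapped widely, and TR1 was the lowest of the 3. The log2 ratio of Il5ra was 0.03 in TR9 (−0.62 to 0.68) and −0.99 in TR1 (−1.80 to −0.22), and neither was called. Between TR9 and TR1 it was 1.02 (0.24 to 1.84), not called either. Il5ra was also the only one of the 10 with fractional counts, which arise when RSEM splits reads between genes.

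**Figure D2:**
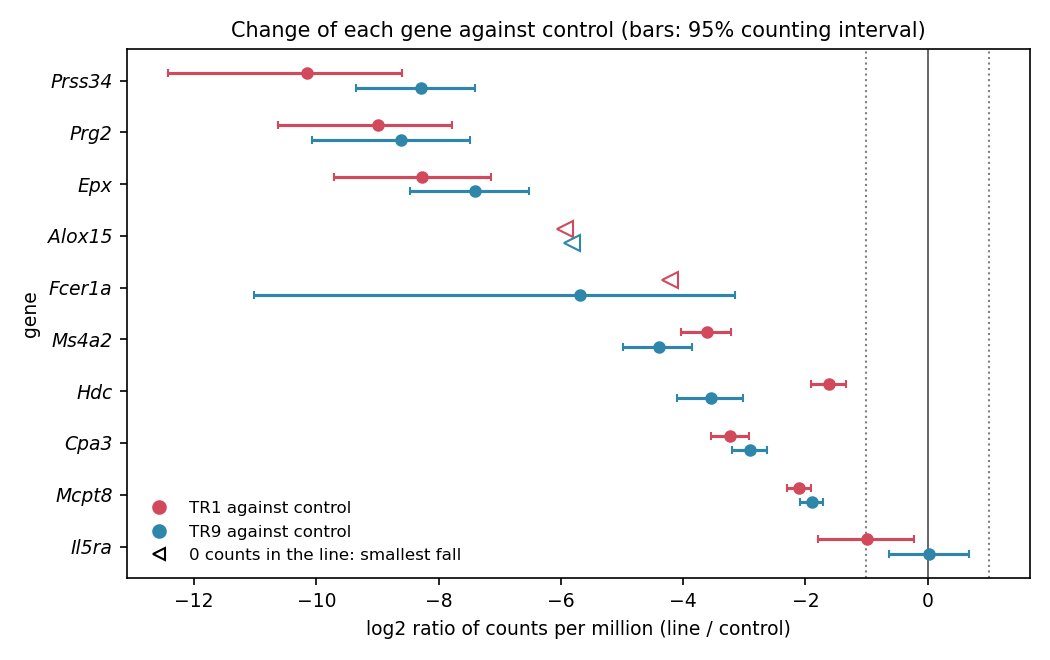
Log2 ratio of CPM against control for each gene in TR1 and TR9, with 95% counting intervals and dotted lines at a log2 ratio of 1 in size. Open triangles mark 0 counts in the line and give the smallest fall. The ratios run from −10.14 for Prss34 in TR1 to 0.03 for Il5ra in TR9.

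Among the proteases, Prss34 and Mcpt8 were both abundant in control and did not fall alike. Prss34, also known as mast cell protease 11, had 3346 counts in control, the most of the 10 genes, 3 in TR1 and 10 in TR9. Its log2 ratio was −10.14 in TR1 (−12.42 to −8.60) and −8.29 in TR9 (−9.35 to −7.41). Mcpt8 had 1113, 263 and 280 counts, or 247, 57.3 and 66.3 FPKM, and its FPKM intervals in the lines lay below control and overlapped each other. Its log2 ratio was −2.10 in TR1 (−2.30 to −1.91) and −1.89 in TR9 (−2.09 to −1.70). Per length, Prss34 was at 2.06 times the level of Mcpt8 in control, at 0.0079 times in TR1 and at 0.0244 times in TR9. This proportion changed by a log2 odds ratio of −8.04 (−10.33 to −6.47) in TR1 and −6.39 (−7.48 to −5.49) in TR9. Cpa3 had 915 counts in control against 99 in TR1 and 114 in TR9. Its log2 ratio was −3.23 in TR1 (−3.54 to −2.93) and −2.91 in TR9 (−3.20 to −2.62). Cpa3 fell further than Mcpt8, with a log2 odds ratio of −1.13 (−1.50 to −0.76) in TR1 and −1.01 (−1.37 to −0.67) in TR9.

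Both IgE receptor genes were lower in the lines. Ms4a2, the beta chain that amplifies the receptor's signal, had 651 counts in control against 54 in TR1 and 29 in TR9. Its log2 ratio was −3.61 in TR1 (−4.04 to −3.21) and −4.39 in TR9 (−4.98 to −3.85). The lines differed by −0.78 (−1.48 to −0.10) and were not called apart. Fcer1a, the alpha chain that binds IgE, had 55 counts in control against 0 in TR1 and 1 in TR9. TR1 was at least 18.6-fold lower, and the log2 ratio of TR9 was −5.68 (−11.01 to −3.15). With 1 count or none, the lines were too shallow to show whether the alpha chain fell more than the beta chain (log2 odds ratio in TR9 −1.29, interval −6.67 to 1.36).

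Hdc, histidine decarboxylase, which makes histamine, was the only one of the 10 genes called apart between the lines. It had 411 counts in control against 136 in TR1 and 33 in TR9, or 31.5, 10.2 and 2.70 FPKM, and the 3 intervals did not overlap. The log2 ratio was −1.62 in TR1 (−1.91 to −1.33) and −3.54 in TR9 (−4.10 to −3.03), and between TR9 and TR1 it was −1.92 (−2.52 to −1.37). The call between the lines was lost in the edgeR test and at a log2 threshold of 2. Of all genes tested between the lines, 2.35% were called lower and 4.41% higher in TR9 (5.14% and 9.6% by fold alone), or 369 and 692 genes, against 462 and 543 with median of ratios factors. Relative to Mcpt8, Hdc was higher in TR1 than in control by a log2 odds ratio of 0.49 (0.13 to 0.83) and lower in TR9 by −1.65 (−2.24 to −1.09). Slc18a2, which loads histamine into granules, was lower in both lines, with 171, 22 and 13 counts. Hnmt, which inactivates histamine by methylation, was higher in both, with 29, 96 and 141 counts and log2 ratios of 1.71 (1.09 to 2.36) in TR1 and 2.38 (1.79 to 3.01) in TR9.

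**Figure D3:**
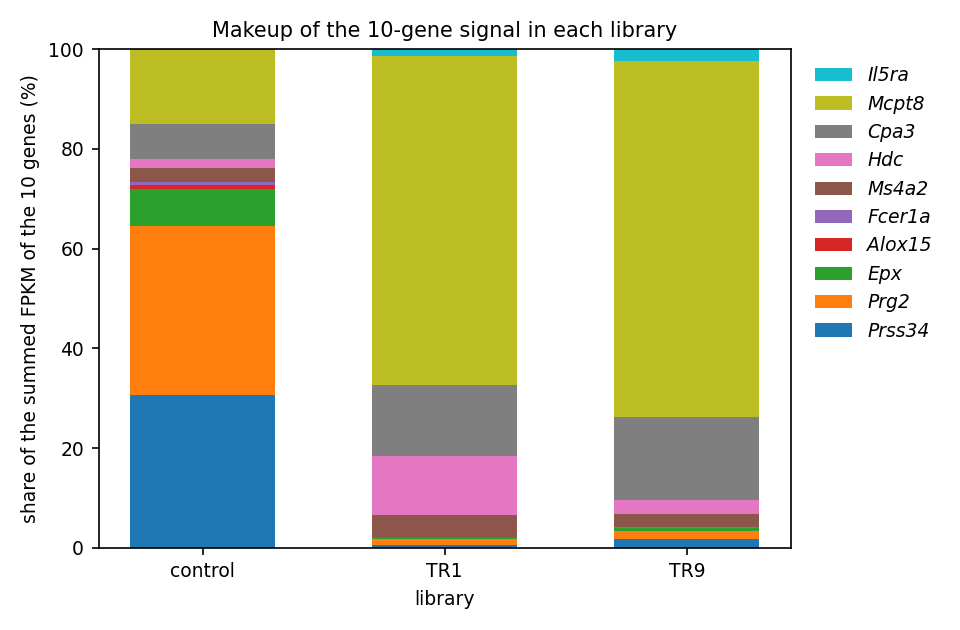
Share of each gene in the summed FPKM of the 10 genes, in percent, 1 bar per library. Prg2 and Prss34 make up 33.9% and 30.6% in control and below 2% each in the lines, while Mcpt8 goes from 14.9% to 66.2% in TR1 and 71.4% in TR9.

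The makeup of the remaining signal therefore differed from control. Mcpt8 gave 10.1% of the counts of the 10 genes in control (95% exact binomial interval 9.52 to 10.6), 44.7% in TR1 (40.7 to 48.9) and 53.4% in TR9 (49.1 to 57.8). Cpa3 gave 8.28%, 16.8% and 21.8%. Prss34 gave 30.3% in control, 0.510% in TR1 and 1.91% in TR9. Hdc gave 3.72% in control, 23.1% in TR1 and 6.30% in TR9.

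Other granule genes of the same cells were read as well. Of 5 further eosinophil granule genes, 4 were called lower in both lines and none higher, beside 8.48% and 5.7% over all genes. Prg3, a relative of Prg2, had 223 counts in control against 1 in TR1 and 2 in TR9. Ear1 and Ear6, ribonucleases of eosinophil granules, had 296 and 224 counts in control and 3 or fewer in the lines. Their counts in control were not whole, so the Ear genes share reads with each other and are uncertain one by one. The median log2 ratio of the 4 genes with a ratio was −6.45 in TR1 and −6.71 in TR9. Of 9 further mast cell and basophil proteases, 6 were not listed in any library (Mcpt1, Mcpt2, Mcpt9, Tpsb2, Tpsab1 and Tpsg1), and Cma1 and Mcpt4 had at most 1 count in each. A gene not listed in any library may have had no reads or be absent from the annotation used, which cannot be told apart here. Mast cell chymases and tryptases were thus near 0 or not listed in control as well. The label of mast cell genes therefore rests on genes that basophils also express. Gzmb, granzyme B, had 13 counts in control and 0 in both lines and was called lower in both.

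Genes that carry the IgE receptor's signal mostly did not follow its alpha and beta chains. Of 14 such genes, 1 was called lower in both lines and none higher in both, beside 8.48% and 5.7% over all genes. Their median log2 ratios were near 0 (0.10 in TR1, −0.13 in TR9). The gene lower in both was Grap2, an adaptor, with 130 expected counts in control against 6.38 in TR1 and 8.09 in TR9, none of them whole. Fcer1g, the gamma chain that the receptor shares with other Fc receptors, had 362, 1038 and 524 counts. Its log2 ratio was 1.50 (1.32 to 1.67) in TR1, called higher, and 0.63 (0.44 to 0.83) in TR9, not called. Fyn, a Src family kinase, had 303, 193 and 52 counts and was called lower in TR9, with log2 ratios of −2.45 (−2.90 to −2.02) against control and −1.77 (−2.24 to −1.32) against TR1.

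Among 12 further genes of amine and eicosanoid synthesis, 2 were called lower and 5 higher in both lines. The shares over all genes were 8.48% and 5.7%. Besides Slc18a2, the lower gene was Alox12, the platelet-type lipoxygenase, with 716, 5.01 and 3.16 counts. Ptges and Ptgs2, which act in turn to make prostaglandin E2, were higher, Ptges with 4, 66 and 69 counts and Ptgs2 with 4, 43 and 36. Lta4h, leukotriene A4 hydrolase, was also higher, with 1657, 3458 and 5863 counts, but its log2 ratio of 1.04 in TR1 fell below 1 when FPKM were scaled to an equal sum. Of 12 further cytokine receptor genes, 1 was lower and 2 were higher in both, beside 8.48% and 5.7% over all genes. Il1rl1, the receptor of interleukin-33, had 399 expected counts in control against 13.2 in TR1 and 16.5 in TR9. Its coreceptor Il1rap rose instead, with 186, 825 and 837 counts and log2 ratios of 2.13 (1.90 to 2.36) and 2.27 (2.04 to 2.50). Csf2ra, a subunit for GM-CSF, was the other gene higher in both. Csf2rb, the beta chain shared by the receptors of interleukin-3, interleukin-5 and GM-CSF, had 632, 3156 and 920 expected counts and was called higher in TR1 alone. Its difference between TR9 and TR1, −1.66 (−1.77 to −1.55), was called as well.

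Surface genes moved both ways too. Of 12 genes, 5 were called lower and 2 higher in both lines, beside 8.48% and 5.7% over all genes. Ccr3, the eotaxin receptor, had 39 counts in control against 0 in TR1 and 3 in TR9, Cd200r3, an activating receptor of basophils, had 90, 0 and 0, and Itga2, an integrin subunit of basophils and platelets, had 122, 0 and 0. Cd63, a granule membrane protein used as a marker of degranulation, had 444 counts in control and rose in both lines, to 2188 and 2166. Cd69, an early activation antigen, had 49, 109 and 214 counts and was the other gene higher in both. That scaling also cost Cd69 its call in TR1. Siglecf, a lectin of eosinophils, did not follow Prg2 in TR1, with 133 counts in control against 160 and a log2 ratio of 0.25 (−0.10 to 0.59). In TR9 Siglecf was called lower, with 54 counts and a log2 ratio of −1.20 (−1.69 to −0.74). Of 12 secreted cytokines, Tnf was called higher in both lines, with 12, 68 and 62 counts, and none was lower in both. Il13 and Csf2 were not listed in any library, and Il4 had 2 counts in control and 0 in the lines.

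**Figure D4:**
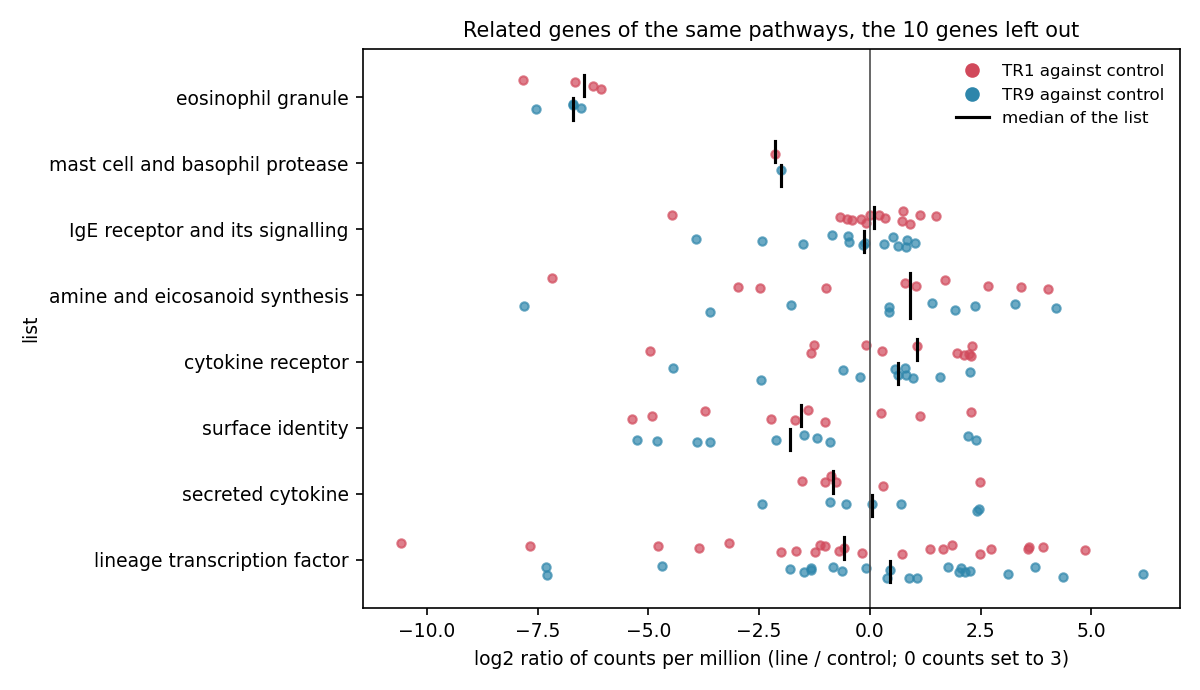
Log2 ratio against control of each related gene with a ratio, by list, for TR1 and TR9, with a black line at the median of each list. Eosinophil granule genes all lie below −6, while the genes of IgE receptor signaling lie on both sides of 0.

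Of 23 transcription factors of these lineages, 6 were called lower and 9 higher in both lines, beside 8.48% and 5.7% over all genes. Gata1 and Gata2 direct mast cell, basophil and eosinophil fate together with C/EBP factors. Gata1 had 999 counts in control against 5 in TR1 and 6 in TR9. Log2 ratios of −7.66 (−9.29 to −6.44) and −7.28 (−8.73 to −6.15) resulted. Gata2 had 915, 64 and 33 counts, with log2 ratios of −3.86 (−4.25 to −3.49) and −4.70 (−5.24 to −4.20). Zfpm1, the GATA cofactor FOG1, had 1523, 1 and 9 counts. Cebpa, by contrast, rose from 470 counts to 1226 and 1945, and Cebpe, a factor of granule formation, from 71 to 482 and 571. Trib1, which is known to lower C/EBPα protein, had 5, 147 and 333 counts, Bhlhe40 18, 216 and 345, and Id1 9, 138 and 111, all 3 called higher in both lines. Spi1, which encodes PU.1, had 434, 733 and 1690 counts and was called higher in TR9 alone, with a difference between TR9 and TR1 of 1.32 (1.20 to 1.45). Mitf, the mast cell and melanocyte factor, had 43, 27 and 55 counts and was called in neither line.

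Markers of other marrow cells differed between control and the lines in both directions. Over all genes, 8.48% were called lower and 5.7% higher in both lines. All 7 erythroid markers that were listed were called lower in both lines, and their summed level was 2581 FPKM in control against 4.84 in TR1 and 9.78 in TR9. Epor was at 0 in TR1, and Hbb-bt was not listed in any library. All 7 megakaryocyte markers were lower in both, with sums of 926, 2.85 and 1.67 FPKM, and Pf4 and Gp6 were at 0 in both lines. GATA1 and GATA2 serve these lineages too, and FOG1 is a cofactor of GATA factors in them. Early neutrophil granule markers summed to 4100 FPKM in control against 20452 in TR1 and 23289 in TR9, with 3 of 4 called higher in both lines, and late ones to 78.1, 21990 and 8671, with 5 of 5. The part of these shifts in the values of the 10 genes was not tested. Monocyte and dendritic markers summed to 86.8, 25.5 and 20.9 FPKM, with 3 of 5 lower in both lines, and stem and multipotent progenitor markers to 112, 44.8 and 13.2, with 2 of 6. In that list Flt3, a receptor of early progenitors, made up 38.4 FPKM of the TR1 sum and was called higher in TR1 and lower in TR9. T and NK markers summed to 97.2, 196 and 157 FPKM, with none of 5 called in both lines, and Nkg7, a cytotoxic granule protein, gave nearly all of it in TR1 (194 FPKM) and TR9 (155 FPKM) and had 412, 857 and 628 counts. B lineage markers summed to 12.0, 3.35 and 5.29 FPKM, with 1 of 5 lower in both. Vpreb1 alone gave the 3.35 FPKM in TR1 and 5.20 of the 5.29 FPKM in TR9. It rose from 1 count in control to 14 and 20 and was called higher in TR9 alone. In control, Cd3e, a T cell antigen, had 2 counts, whereas Kit, the stem cell factor receptor of progenitors and mast cells, had 2115.

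Promoters are shown because Gata1 and Gata2 were lower in both lines, as were 9 of the 10 genes. The sequences are the 250 bases before the start in RefSeq (GRCm38.p6), given for 8 of the 10 genes, and were searched on both strands for GATA words (AGATAA or AGATAG or TGATAA or TGATAG). Prg2 and Alox15 have no entry. Of the 8 promoters 6 held a GATA word, and 26.5% of all 32851 promoters of this length did. Printed in full, 5′ to 3′ on the gene's strand with GATA words in capitals, are Ms4a2 (chr19:11623720-11623969, minus strand), Cpa3 (chr3:20242182-20242431, minus strand), Prss34 (chr17:25298144-25298393, plus strand) and Mcpt8 (chr14:56085198-56085447, minus strand). The first 3 have a GATA word within 50 bases of the start, and Mcpt8 is a promoter without a GATA word. The log2 ratios of Ms4a2, Cpa3 and Prss34 were −3.61, −3.23 and −10.14 in TR1, where the intervals of Ms4a2 and Cpa3 overlapped. In TR9 they were −4.39, −2.91 and −8.29. Epx, the other promoter without one, belongs to a gene with log2 ratios of −8.26 and −7.41, against −2.10 and −1.89 for Mcpt8.
Ms4a2: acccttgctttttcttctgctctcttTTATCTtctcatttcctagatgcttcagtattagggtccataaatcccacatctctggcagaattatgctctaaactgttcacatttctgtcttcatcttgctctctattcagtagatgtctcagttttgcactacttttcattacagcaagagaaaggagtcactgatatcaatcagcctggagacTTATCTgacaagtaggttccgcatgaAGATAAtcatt
Cpa3: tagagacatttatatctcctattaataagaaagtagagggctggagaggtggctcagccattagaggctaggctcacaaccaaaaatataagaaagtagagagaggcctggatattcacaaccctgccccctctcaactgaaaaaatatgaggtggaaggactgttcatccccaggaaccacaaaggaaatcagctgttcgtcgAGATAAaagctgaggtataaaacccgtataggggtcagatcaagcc
Prss34: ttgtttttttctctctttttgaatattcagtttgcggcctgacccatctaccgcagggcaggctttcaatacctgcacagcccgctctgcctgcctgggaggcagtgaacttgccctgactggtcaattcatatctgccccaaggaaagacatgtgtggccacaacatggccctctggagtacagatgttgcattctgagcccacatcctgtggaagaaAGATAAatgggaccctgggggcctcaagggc
Mcpt8: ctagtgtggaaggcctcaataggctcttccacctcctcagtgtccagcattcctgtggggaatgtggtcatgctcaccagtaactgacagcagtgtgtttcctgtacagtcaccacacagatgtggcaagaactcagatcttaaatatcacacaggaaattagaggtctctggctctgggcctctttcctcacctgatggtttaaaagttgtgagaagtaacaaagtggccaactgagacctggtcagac
In Ms4a2 the words began 224, 37 and 11 bases before the start, in Cpa3 46 and in Prss34 31 bases before it. Hdc and Il5ra held 1 word each, 221 and 74 bases before the start, and Epx held none. The entry for Fcer1a also held 1 word, but the bases after it did not match the opening of an annotated transcript, so its distance is not given and its place among the 6 is uncertain. Il5ra had a GATA word and was called in neither line. RUNX words (TGTGGT or TGCGGT) were in 4 of the 8 promoters and in 18.6% of all, a C/EBP word (TTGCNNAA) was in 1 of 8 and in 9.56% of all, and a STAT word (TTCNNNGAA) was in 0 of 8 and in 7.02% of all. The entry with the C/EBP word was the uncertain one for Fcer1a, which was also 1 of the 4 with a RUNX word. Words of different kinds were searched apart and could overlap. A match is only a match of letters, and the part of GATA factors in the values of these genes was not tested.

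Mcpt8 and Ms4a2 lie beside genes that were higher in both lines. For each of the 10, the nearest coding gene on either side with over 3 counts in a library was taken from the RefSeq gene order, a comparison chosen after the values were seen. Of these 20 neighbors, 3 were called lower and 3 higher in both lines, and 12 were called in neither, beside 8.48% lower and 5.7% higher in both lines over all genes. Those shares also cover genes at 3 counts or fewer in every library, which could not be called and are not among the neighbors. Mcpt8 lies directly beside Ctsg, cathepsin G of neutrophil granules, on chromosome 14, and Ctsg with 2717 counts in control rose to 14320 in TR1 and to 24498 in TR9 while Mcpt8 fell. Ms4a2 on chromosome 19 lies between Ms4a6d and Ms4a3, members of the same membrane protein family, and both were higher. Ms4a3 had 821, 4573 and 2096 counts, with log2 ratios of 2.46 (2.35 to 2.57) and 1.45 (1.33 to 1.57). Ms4a6d had 8.58, 133 and 36.7 expected counts, which are not whole. Prg2 and its neighbor Prg3 on chromosome 2 fell together, and Slc43a3 on their other side was lower as well, with log2 ratios of −1.11 (−1.28 to −0.94) in TR1, lost with TMM scaling, and −1.73 (−1.94 to −1.52) in TR9. Alox12e, beside Alox15 on chromosome 11, had 21 counts in control and 0 in both lines.

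**Figure D5:**
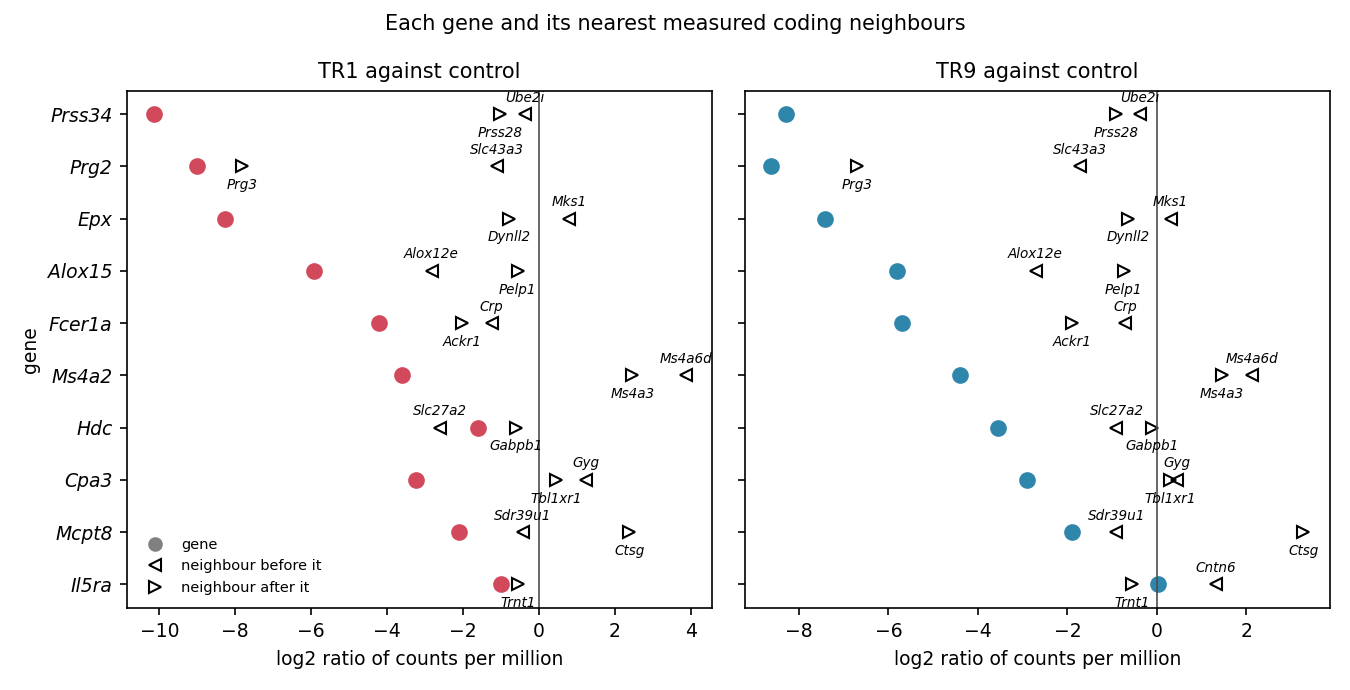
Log2 ratio against control of each of the 10 genes (filled circles) and of the nearest coding genes before and after it on the chromosome with over 3 counts (open triangles), in TR1 and TR9, with 0 counts set to 3. Ctsg, Ms4a6d and Ms4a3 lie above 0 in both panels beside Mcpt8 and Ms4a2, which lie below.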

How the data were processed

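RNA-seq was analysed in 3 libraries (control, TR1 and TR9), grouped by their sample titles. Per the study's methods, the authors filtered reads, used BWA and Bowtie for mapping and RSEM for quantification, and the submitters' processing notes name mm9. Software versions are not given in the sources used here. They deposited, per gene, an expected count, which is not normalized and need not be whole (19.9% to 21.2% of listed genes were not), and an FPKM scaled for length and library total. The deposited files also give gene length (not used). NCBI Gene IDs were matched to symbols in RefSeq GRCm38.p6 (16698 of 16742), used only for names, gene order and promoter sequences.

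Expected counts were rounded. Libraries were compared in pairs by an exact Poisson test conditional on the pair's total (scipy 1.17.1), adjusted after Benjamini and Hochberg over all genes listed in either library, as the study's methods screen pairs by a Poisson method. A count of 0 was set to 3 in a ratio, and no ratio was taken where both libraries had 3 counts or fewer. Proportions of 2 genes were compared by the conditional odds ratio. The steps were tested on simulated data. Precision is set by depth, 5129662 to 5571409 counts per library, and reads without molecular identifiers are not independent molecules.

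The 10 genes and the 8 lists of related genes and 8 lists of markers were chosen with earlier results of these data known. Named genes were the 10, 6 transcription factors (Gata1, Gata2, Cebpa, Cebpe, Mitf and Spi1), up to 3 genes per related list and direction with the largest smaller change among those called in both lines, related genes called in opposite directions in the lines (none), and Rara and Tbl1xr1. Fcer1g, Fyn, Lta4h, Csf2rb, Siglecf, Kit, Alox5, single markers and neighbors were named after their values were seen. Alternatives used TMM, median of ratios and upper quartile factors from edgeR 4.0.16 in R 4.3.3, and the exact test of edgeR, in which a biological coefficient of variation of 0.4 was assumed.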

Additional observations from a re-analysis of the deposited data

Results flagged for a closer look

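Hdc was singled out because its change against control differed between the lines when their reads were compared directly. Its log2 ratio between TR9 and TR1 was −1.92 (95% interval −2.52 to −1.37), with 136 counts in TR1 and 33 in TR9. The other 9 genes were not called apart between the lines.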

How the results depend on the processing

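No paired analysis was possible because each condition has 1 library. Of 335 values of the 10 genes under 12 alternatives, 320 kept their side of the threshold, 12 were no longer called and 3 became called. No called value reversed, but a change of sign was not counted where a value was uncalled under both settings. Scaling FPKM to an equal sum added −0.11 to every log2 ratio in TR9, which turns that of Il5ra, 0.03, below 0. TMM scaling added 0.24 to every log2 ratio in TR1, 0.11 in TR9 and −0.13 between TR9 and TR1, which brings Slc43a3 in TR1 inside the threshold of 1. The median of the 10 genes depends on how low values are treated. It was −5.94 in TR1 and −5.02 in TR9 for a ratio of FPKM with a floor of 0.01, which turns the order of the lines, −3.39 and −3.52 with 1 added to FPKM, and −4.71 and −5.04 when 0 was set to 1 count. Under the edgeR test, 5 of the 10 genes were called lower in TR1, 5 in TR9 and 4 in both (Prg2, Epx, Prss34 and Alox15), and 0 between TR9 and TR1. It called 347 genes lower and 170 higher in TR1 against 2144 and 1325, 287 and 161 in TR9 against 1776 and 1546, and 2 and 13 between the lines against 369 and 692. Of the related genes it called 10 lower and 1 higher in both, against 20 and 19. A log2 ratio of at least 2 left 1154 lower and 683 higher genes in TR1, 942 and 748 in TR9, and 137 and 290 between the lines, and 11 related genes higher in both. Mcpt8 in TR9, Hdc in TR1 and Hdc between the lines (0 of the 10 then lower) were not called at that threshold. Between TR9 and TR1, a false discovery rate of 0.05 called 1 of the 10 genes higher, Il5ra, and the fold alone called 2, Il5ra and Prss34, with 807 genes lower and 1507 higher in all. Genes at under 10 counts in the lines give wide intervals, and their order is not resolved at this depth.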

Other observations

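A limit of 10 counts, chosen after the values of the 10 genes were seen, was applied to all genes. Of 1169 genes with at least 1000 counts in control, 18 (1.54%) had 10 counts or fewer in both TR1 and TR9, and Prg2, Epx and Prss34 were 3 of the 18, with Car1, an erythroid carbonic anhydrase, the platelet genes Pf4 and Ppbp, and Zfpm1 also among them. Of 9358 genes with at least 50 counts in control, 301 (3.22%) had 10 counts or fewer in both lines and 63 (0.673%) were at 0 in both, Alox15 among them. Kit was lower in TR1 than in control by a log2 ratio of −1.33 (95% interval −1.45 to −1.22), and it was higher in TR9 than in TR1 by 1.10 (0.98 to 1.22). Alox5, arachidonate 5-lipoxygenase, had 276 counts in control against 140 in TR1 and 346 in TR9, and was higher in TR9 than in TR1 by 1.42 (1.14 to 1.72).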
